A study of Mus musculus with 48 samples.

Results

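Dbp, Tef and Nfil3 encode the transcription factors that act on D-boxes, and their RNA was followed in NIH 3T3 mouse fibroblasts with and without a hairpin against the clock gene Bmal1. The 3 genes were taken by symbol from the exon and intron tables, where they are 3 of 11313 genes. NIH 3T3 is an immortalised mouse embryonic fibroblast line whose cells carry a circadian clock that a serum pulse sets to a common phase. All cells received 50% horse serum for 2 h. The line labelled shCTRL (control short hairpin) and the line labelled shBmal1 (hairpin against Bmal1, listed in the tables as Arntl) were collected every 2 h from 24 to 46 h. Each culture gave a total RNA library and a library of newly made RNA, labelled with 4sU (4-thiouridine) in the living cells and captured on streptavidin beads. There were thus 4 groups of 12 libraries, with 1 library per group and time point. The sources used here do not say how the hairpins were introduced or whether a line is 1 clone. With 1 culture per time, every p-value below measures the scatter of the libraries around a curve fitted through a line's 12 times, not the spread between repeat cultures.

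The D-box is a short DNA element that passes timing from the core clock to other genes. Dbp and Tef belong to the PAR bZIP family (proline- and acid-rich basic leucine zipper proteins), which activate from D-boxes, and Hlf is their close relative. Nfil3, also called E4bp4, is a bZIP repressor that competes for the same element. CLOCK and BMAL1 switch on Dbp and Tef through E-boxes, while the REV-ERB repressors and ROR activators, encoded by Nr1d1, Nr1d2 and the Ror genes, act on Nfil3 through ROR elements (ROREs). The activators and the repressor therefore normally peak in opposite parts of the day, as is well described in liver.

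Of the stretches before the transcription starts, only those with a match to the E-box or the RORE named above are shown. Each is the 250 bases that precede a RefSeq start on GRCm38.p6, written 5′ to 3′ on the gene's strand, with a match to a searched motif in capitals. Tef has 2 starts in the RefSeq table, the second inside the annotated span of the gene, and the Nfil3 window also lies inside its gene's annotated span.
Tef, start 1, chr15:81802423-81802672, plus strand: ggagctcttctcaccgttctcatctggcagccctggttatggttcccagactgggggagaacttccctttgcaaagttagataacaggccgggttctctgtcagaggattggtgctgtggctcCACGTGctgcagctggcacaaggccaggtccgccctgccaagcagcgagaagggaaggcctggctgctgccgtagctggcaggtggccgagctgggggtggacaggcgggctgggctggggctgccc
Tef, start 2, chr15:81811164-81811413, plus strand: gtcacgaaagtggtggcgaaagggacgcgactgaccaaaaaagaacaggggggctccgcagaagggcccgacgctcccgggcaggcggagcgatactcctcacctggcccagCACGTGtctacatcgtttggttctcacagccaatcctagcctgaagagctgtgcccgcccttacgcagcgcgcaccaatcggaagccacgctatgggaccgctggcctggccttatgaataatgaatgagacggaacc
Nfil3, start 1, chr13:52981040-52981289, minus strand: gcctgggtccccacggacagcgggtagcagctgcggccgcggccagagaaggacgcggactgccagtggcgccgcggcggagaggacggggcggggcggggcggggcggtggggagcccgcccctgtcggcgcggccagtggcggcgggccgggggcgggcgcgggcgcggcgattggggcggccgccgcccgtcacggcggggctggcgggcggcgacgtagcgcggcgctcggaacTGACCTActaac

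In both Tef windows the capitals mark the E-box CACGTG, whose first base lies 127 and 138 bases before the start. In the Nfil3 window they mark the RORE TAGGTCA on the opposite strand, 12 bases before the start. Both strands were searched for these motifs, for the E-box variant CACGTT and for the D-box TTANGTAA, and no window held more than 1 match. The windows of Dbp and Hlf, with 1 start each, held no match. The Dbp window, chr7:45704997-45705246, reaches into the annotated span of Dbp. Stretches outside the windows were not searched. Among 32851 RefSeq starts, 6.02% of such windows held CACGTG, 3.85% CACGTT, 2.06% TTANGTAA and 2.23% TAGGTCA. A match is a description of the letters in the window and not a measured binding site. The genes lie at chr7:45705100-45710203 on the plus strand (Dbp), chr15:81802673-81826863 on the plus strand (Tef) and chr13:52967209-52982878 on the minus strand (Nfil3).

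Levels are given as RPKM (reads per kilobase of exon or intron, scaled to the reads of the library), which can be compared between genes because it is per length. The libraries held 48873013 to 76260143 reads, recovered from the steps of the deposited values. Total RNA exon reads were 381 to 6215 per library for Dbp, 1806 to 12825 for Tef and 216 to 2240 for Nfil3. Counting error in total exon RNA was thus small beside the changes over time. Intron reads were fewer, with 80 to 384 for Nfil3 in shCTRL total RNA and 150 to 689 in shCTRL 4sU RNA. Dbp intron reads in shBmal1 total RNA were 188 to 548. Of 11 fibroblast markers 10 were in the tables, with a summed level of 5770 to 6660 RPKM in shCTRL and 5180 to 5950 in shBmal1. The mean was lower in shBmal1 for 7 of the 10, among them Pdgfra (68.6 and 22.7), Dcn (131.0 and 54.7) and Fn1 (1820 and 1130), and higher for 3, among them Vim (1940 and 2250). Krt14 was the 1 of 5 epithelial markers in the tables (2.09 to 4.32 against 7.64 to 13.6 RPKM), 3 of 6 leukocyte markers summed to 12.8 to 20.0 against 17.2 to 25.2, and no hepatocyte or neural marker of 3 each was listed. The part of these markers in the results below was not tested. Arntl itself, the target of the hairpin, was at 9.01 ± 5.93 RPKM in shCTRL and 3.86 ± 0.742 in shBmal1 total RNA (mean ± SD over the 12 times). Its shCTRL values ran from 1.29 to 17.2 and its shBmal1 values from 2.36 to 5.00, so the lines overlapped at the Arntl trough.

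Dbp, the PAR bZIP activator with the widest swing, was at its highest in shCTRL total RNA at 24 h with 47.6 RPKM, fell to 4.39 at 34 h and was back at 31.6 by 46 h (median 12.6). In shBmal1 it was 10.2 RPKM at 24 h, 3.33 at 34 h and 5.00 at 46 h (median 4.95). The 7 highest shCTRL libraries lay above all 12 shBmal1 libraries, while 4 shBmal1 libraries lay below all of shCTRL. The lines nearly met from 32 to 38 h, when Dbp was at its shCTRL trough.

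Tef, the second activator, ran from 44.1 RPKM at 24 h to 7.60 at 34 h and 30.1 at 46 h in shCTRL total RNA (median 18.3). In shBmal1 it ran from 19.2 at 24 h to 7.94 at 34 h (median 9.52). The 5 highest shCTRL libraries lay above all of shBmal1, and the shBmal1 values from 32 h on stayed between 7.94 and 9.89 RPKM, close to the shCTRL trough.

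Nfil3, the repressor, had the opposite course. In shCTRL total RNA it was lowest at 24 h with 1.5 RPKM, highest at 34 h with 10.0 and back at 2.14 by 46 h (median 5.27). In shBmal1 it lay between 10.1 and 12.4 RPKM from 24 to 44 h and at 21.7 at 46 h (median 11.1). All 12 shBmal1 libraries were thus above all 12 of shCTRL on the deposited values, by a narrow margin over the shCTRL peak. After scaling of the libraries to a common median, 8 of the 12 lay above all of shCTRL, and 11 shCTRL libraries lay below all of shBmal1. The repressor RNA thus stayed near or above its control peak at every time in shBmal1.

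**Figure D1:**
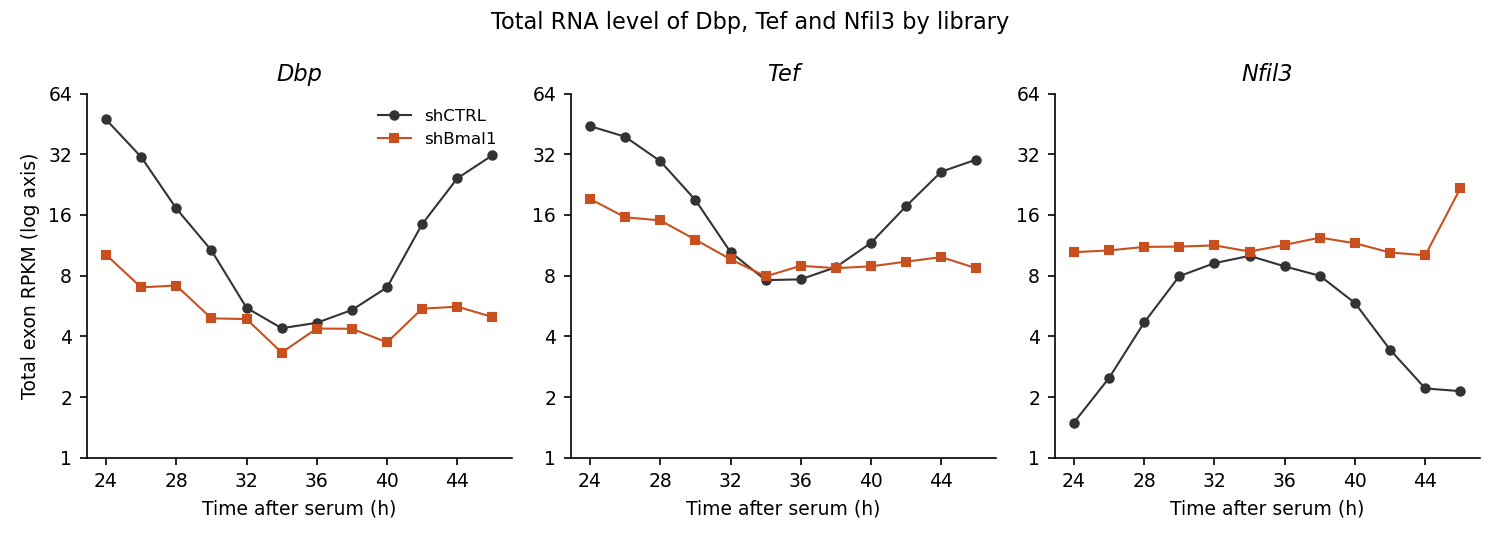
Total RNA exon RPKM (log axis) of Dbp, Tef and Nfil3 against hours after serum in shCTRL (circles) and shBmal1 (squares), 1 library per point. Dbp and Tef of shCTRL fall from 24 h to troughs of 4.39 and 7.60 RPKM at 34 h and come back, and Nfil3 mirrors them. In shBmal1 Dbp and Tef fall from 10.2 and 19.2 RPKM at 24 h to 3.33 and 7.94 at 34 h. Nfil3 of shBmal1 stays near or above the shCTRL peak.

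The first comparison asked how the mean level over the 12 times differed between the lines. Dbp averaged 17.0 ± 13.9 RPKM in shCTRL and 5.50 ± 1.86 in shBmal1, Tef 21.0 ± 12.7 and 11.2 ± 3.56, and Nfil3 5.53 ± 3.17 and 11.9 ± 3.15 (mean ± SD over 12 times, which includes the rhythm). On the log2 scale of scaled RPKM plus 0.1, limma gave Dbp a shBmal1 minus shCTRL difference of -1.31 ± 0.0839 (SE, adjusted p = 2.68e-11) and Tef of -0.79 ± 0.0630 (adjusted p = 7.69e-10). Nfil3 was higher by 1.23 ± 0.0961 (adjusted p = 5.65e-10). The test called 33.1% of 10906 genes lower and 34.4% higher, and the median of all genes was 0.01, so a call by itself sets no gene apart in these lines. These are bulk libraries, in which fewer cells expressing a gene and less RNA per cell cannot be told apart.

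Hour by hour, scaled Dbp RNA was lower in shBmal1 at 12 of 12 times, most at 46 h (6.64-fold) and least at 36 h (log2 difference -0.18). Tef was lower at 11 of 12 times, most at 46 h (3.66-fold), and at 36 h the difference was 0.13. Nfil3 was higher at 11 of 12 times, most at 46 h (9.15-fold), with -0.03 at 34 h. For Nfil3 the difference at 24 h was 2.62 and at 44 h 2.08, so large differences were also present at other times. Without 46 h the Nfil3 difference of the means was 1.18 (adjusted p = 2.60e-14).

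The same comparison in newly made intron RNA, read here as a measure of synthesis, gave the same directions. Scaled 4sU intron RPKM of Dbp ran from 0.851 to 7.30 in shCTRL (median 2.13) and from 0.772 to 3.04 in shBmal1 (median 1.29). Tef ran from 0.784 to 4.66 (median 1.83) and from 0.836 to 1.97 (median 1.07). Nfil3 ran from 0.154 to 0.841 (median 0.453) and from 0.586 to 1.79 (median 0.836). The line ranges overlapped for all 3 genes: 5 of the 12 shCTRL libraries for Dbp and 6 for Tef lay above every shBmal1 library, and 7 for Nfil3 lay below every one. The differences were -0.88 ± 0.0965 for Dbp (limma adjusted p = 7.78e-07), -0.71 ± 0.0584 for Tef (2.02e-08) and 1.02 ± 0.120 for Nfil3 (1.97e-06), with 22.3% of 10494 genes called lower and 22.1% higher.

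On the deposited intron values, on which all genes had a median of -0.45, the 4sU intron differences were -1.35, -1.18 and 0.56. Relative to that median they are again lower, lower and higher. The 4sU exon differences were -1.07 ± 0.102, -0.80 ± 0.0675 and 1.16 ± 0.106 for Dbp, Tef and Nfil3 (26.9% of 11011 genes called lower, 27.5% higher). Those of total intron RNA were -1.03 ± 0.0994, -0.70 ± 0.0611 and 1.04 ± 0.136 (26.8% of 10011 lower, 29.3% higher). All 6 passed the threshold of 0.05, where limma called 54.4% of genes in 4sU exon RNA and 56.1% in total intron RNA in either direction.

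**Figure D2:**
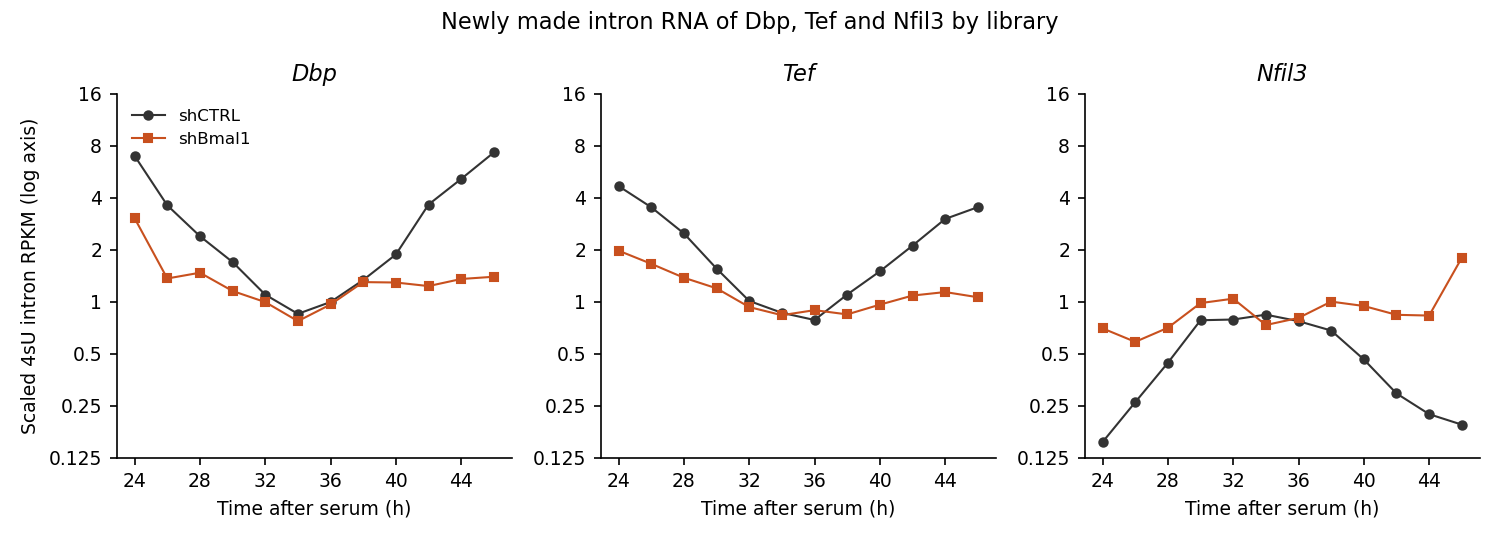
Scaled 4sU intron RPKM (log axis) of Dbp, Tef and Nfil3 against hours after serum in shCTRL (circles) and shBmal1 (squares), 1 library per point. The shCTRL curves of Dbp and Tef dip to 0.851 and 0.784 and that of Nfil3 crests at 0.841. The lines lie close together at 34 and 36 h. At 38 h the log2 difference shBmal1 minus shCTRL is 0.54 for Nfil3, -0.37 for Tef and -0.04 for Dbp.

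The next comparison asked which of the genes cycled with a 24-h period in each line. In shCTRL total RNA the amplitude (log2, from mean to peak) was 1.63 ± 0.0839 for Dbp, the highest of 10906 genes. It was 1.24 ± 0.0630 for Tef and 1.25 ± 0.0961 for Nfil3, which ranked 6 and 5. Limma adjusted p were 1.28e-10, 1.21e-10 and 9.46e-08, where 3.6% of genes were called. The fitted peak-to-trough folds were 9.57, 5.57 and 5.63. Dbp peaked at 47.4 ± 0.197 h (SE) and Tef 0.599 ± 0.277 h later, at a time that is 24.0 h on the same cycle. Nfil3 peaked at 34.5 ± 0.294 h, which is 12.9 ± 0.354 h before Dbp and 13.5 ± 0.353 h before Tef. The repressor and the activators were thus close to opposite phases.

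In shBmal1 the amplitude was 0.47 ± 0.0839 for Dbp (adjusted p = 0.00386) and 0.42 ± 0.0630 for Tef (0.00104), with 11.1% of genes called. The fitted folds were 1.91 and 1.8 and the peaks 24.4 ± 0.684 h and 25.7 ± 0.568 h. Nfil3 gave 0.13 ± 0.0961 (limma adjusted p = 0.608), a fold of 1.20. The test of the difference in rhythm between the lines gave adjusted p of 2.18e-05 for Dbp, 2.23e-05 for Tef and 2.18e-05 for Nfil3, where 0.807% of genes were called. All 3 genes were therefore among the 88 genes whose 24-h course differed between the lines.

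The series spans less than 1 full cycle, so a slow drift and a 24-h wave are hard to separate. When a linear time term was added, limma called 108 genes in shCTRL and 11 in shBmal1, against 393 and 1214 without it. Dbp (adjusted p = 0.045) and Tef (0.011) in shBmal1 were still called. Both were at their highest at 24 h in shBmal1, and without that time their amplitudes were 0.36 (adjusted p = 0.0178) and 0.33 (0.000636). No 12-h rhythm was called for the 3 genes in total exon RNA of either line. Limma called 0 of 10906 genes in shCTRL (0%, with 352 at an unadjusted p under 0.05) and 2 in shBmal1 (0.0183%, with 2642). The 12-h amplitudes were 0.13, 0.14 and 0.21 for Dbp, Tef and Nfil3 in shCTRL and 0.13, 0.21 and 0.12 in shBmal1. Nfil3 passed in shCTRL without the 46 h time (0.28, limma adjusted p = 0.0413), and Tef in shBmal1 without 24 h (0.22, 0.0278) or 26 h (0.26, 0.0469). In total intron RNA the 12-h term differed between the lines for 0.02% of 10011 genes, and for Dbp, Tef and Nfil3 the limma adjusted p were 0.805, 0.919 and 0.849.

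Synthesis cycled as well. In shCTRL 4sU intron RNA the amplitudes were 1.45 ± 0.0965 for Dbp (peak 46.4 h), 1.16 ± 0.0584 for Tef (47.3 h) and 1.12 ± 0.120 for Nfil3 (34.1 h). Limma adjusted p were 6.58e-08, 1.13e-09 and 7.42e-05, with 1.12% of 10494 genes called. In shBmal1 they were 0.47 for Dbp (adjusted p = 0.0185), 0.45 for Tef (0.000857) and 0.15 for Nfil3 (0.679), with 5.82% called. The difference in rhythm gave 0.00564, 0.000323 and 0.00859 for Dbp, Tef and Nfil3, where 0.286% of genes were called. For Dbp the shBmal1 call and the difference were lost when 30, 34 and 46 h were left out of both lines together (limma adjusted p = 0.152 and 0.284). At each of these times some of 10866 genes lay beyond all other times of 1 line by more than 0.5 log2 in both kinds of RNA. In shCTRL 44 lay below at 30 h. In shBmal1 40 lay above and 4 below at 46 h, and only 6 above and 3 below at 34 h. In 4sU RNA alone shBmal1 at 24 h, which was kept, had 31 above and 13 below. The shBmal1 call for Dbp was also lost without 34 h (0.0965), 36 h (0.0856) or 40 h (0.0629), and the Nfil3 difference without 34 h (0.0735) or 36 h (0.0714).

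Exons of 4sU RNA and introns of total RNA gave like values. In 4sU exon RNA the shCTRL amplitudes were 1.68, 1.20 and 1.14 for Dbp, Tef and Nfil3 (1.98% of 11011 genes called) and those of shBmal1 0.63, 0.52 and 0.27, the last not called (limma adjusted p = 0.157, 18% called). The difference in rhythm passed for all 3 (0.0021, 0.00389 and 0.000246, 1.06% called), but not for Dbp (0.113) or Tef (0.0634) without 30, 34 and 46 h. In total intron RNA the shCTRL amplitudes were 1.49, 1.14 and 0.95 (1.34% of 10011 genes called). In shBmal1 they were 0.50, 0.30 and 0.09, and Dbp (limma adjusted p = 0.0186) and Tef (0.0216) were called and Nfil3 (0.894) was not, with 5.16% called. Both calls were lost with a linear time term (0.174 and 0.136). The Dbp call was also lost without 24 h (0.0759), 34 h (0.0612) or 40 h (0.0655), and the Tef call without 24 h (0.0632), 26 h (0.0665), 38 h (0.0787) or 40 h (0.129). The difference passed for Dbp (0.00683) and Tef (6.27e-05) and not for Nfil3 (0.0988, 0.0999% called). For Nfil3 it passed without the 46 h time (0.00463), with quantile normalization (0.0461) and with a linear time term (0.000637). The Dbp difference was lost without 36 h (0.0561).

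**Figure D3:**
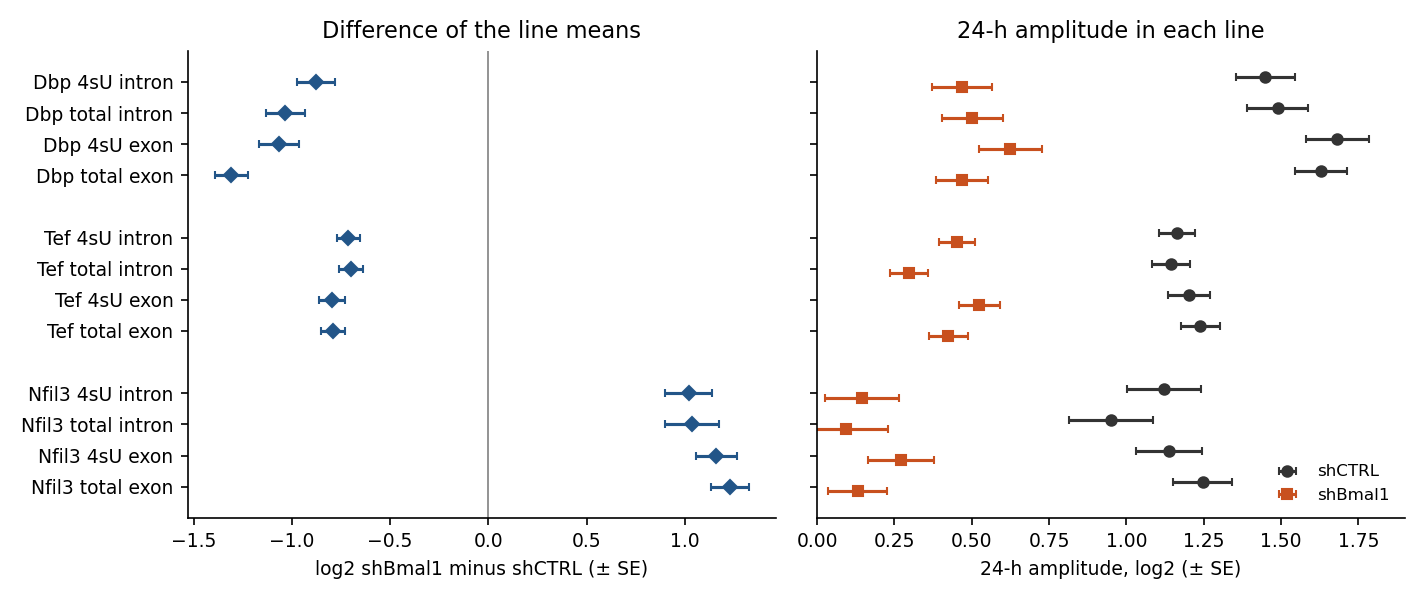
Left, log2 difference shBmal1 minus shCTRL of the line means with its SE in 4 kinds of measurement (4sU intron, total intron, 4sU exon, total exon) for Dbp, Tef and Nfil3. Right, 24-h amplitude with its SE in shCTRL (circles) and shBmal1 (squares): total exon amplitudes are 1.63, 1.24 and 1.25 in shCTRL and 0.47, 0.42 and 0.13 in shBmal1.

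Setting synthesis beside level shows how much of the change was already present in newly made RNA. In shCTRL the total exon peak followed the 4sU intron peak by 1.03 ± 0.321 h for Dbp, 0.769 ± 0.273 h for Tef and 0.386 ± 0.502 h for Nfil3. The SE treat the layers as independent although they come from the same cultures, and these gaps were not tested. The amplitude of total exon RNA was 1.12, 1.06 and 1.11 times that of 4sU intron RNA. Total exon minus 4sU intron, a measure of RNA level relative to synthesis, had no called 24-h rhythm in shCTRL for Dbp (amplitude 0.45, limma adjusted p = 0.0505), Tef (0.25, 0.0714) or Nfil3 (0.17, 0.548), with 0.175% of 10294 genes called. In shCTRL all 3 passed with a 10 times larger pseudocount, Dbp at 0.42 (adjusted p = 0.00932), Tef at 0.25 (0.00992) and Nfil3 at 0.27 (0.00932). Dbp and Tef of shCTRL also passed with a 5 times stricter filter (0.0275 and 0.0398). Dbp of shCTRL further passed without 46 h (0.0391), on the values as deposited (0.0453) and with introns on exon totals (0.0448). It passed too with quantile normalization (0.0246) and with 24-h terms only (0.0406), and Tef of shCTRL without 36 h (0.0344). In shBmal1 Dbp (0.17, limma adjusted p = 0.397) and Tef (0.10, 0.381) were not called, with 3.24% called.

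Between the lines, level relative to synthesis was lower in shBmal1 for Dbp (-0.43 ± 0.0801, limma adjusted p = 0.000273) and higher for Nfil3 by 0.21 ± 0.0540 (0.00395), and Tef gave -0.08 ± 0.0464 (0.179). The test called 24.8% of 10294 genes lower and 19.5% higher. On the values as deposited the median of all genes was 0.53, and with introns put on the exon read totals it was 0.09. Less that median, Dbp was at -0.40 and -0.41, Tef at -0.05 and -0.06 and Nfil3 at 0.22 and 0.22, so the directions relative to all genes were those of the scaled values.

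The ratio of newly made to total exon RNA of the same culture was compared as well. Each RPKM is scaled to the reads of its own library, so the ratio is not the newly made share of a gene's RNA. Dbp had a 4sU to total ratio of 0.713 ± 0.126 in shCTRL and 0.834 ± 0.139 in shBmal1 (SD over 12 times), Tef 1.22 ± 0.0994 and 1.21 ± 0.158, and Nfil3 1.32 ± 0.138 and 1.24 ± 0.140. In shCTRL the Dbp ratio was lowest at 26 h (0.525), while its RNA was falling, and highest at 42 h (0.923), while it was rising. The log2 ratio of Dbp was higher in shBmal1 by 0.24 ± 0.0694 (limma adjusted p = 0.0151), with 15.9% of 10866 genes called higher and 28% in either direction. Tef differed by -0.00 (0.937) and Nfil3 by -0.07 (0.271). Per the labels' protocols 30 µg of RNA entered each pull-down, which was close to 50% of the shCTRL RNA and 60 to 70% of the shBmal1 RNA, and the part of this in the ratio was not tested. The Dbp call was lost without the 30 h time (0.22, adjusted p = 0.0529).

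The 24-h rhythm of the ratio was not called in shCTRL for Dbp (0.29, limma adjusted p = 0.42), Tef (0.13, 0.42) or Nfil3 (0.13, 0.684), with 0.0184% of genes called. In shBmal1 it was called for Tef (0.23, adjusted p = 0.00424) and not for Dbp (0.18, 0.144) or Nfil3 (0.15, 0.072), with 18% called. The test of the difference between the lines did not pass for Tef (adjusted p = 0.0696), with 0.092% called. The Tef call in shBmal1 was lost with a linear time term (0.0755) and without 30, 34 and 46 h (0.149). With a 5 times stricter filter the Tef difference between the lines (0.0448) and the Nfil3 rhythm in shBmal1 (0.0497) passed, as did the Tef difference with 24-h terms only (0.0464) and the Nfil3 rhythm with a 10 times larger pseudocount (0.0425).

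Intron RNA relative to exon RNA was highest for Dbp. With intron values on the exon read totals, intron RPKM of Dbp was 23.6 ± 2.21% of exon RPKM in shCTRL total RNA and 32.6 ± 4.71% in shCTRL 4sU RNA. Tef gave 6.34 ± 0.810% and 10.3 ± 0.961%, and Nfil3 5.15 ± 1.21% and 8.28 ± 0.754%. In shBmal1 the 3 genes gave 26.8%, 6.34% and 4.33% in total RNA and 34.8%, 10.2% and 7.21% in 4sU RNA. All 3 genes thus had relatively more intron RNA in the newly made fraction in both lines.

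The balance between activators and repressor followed from these courses. The sum of Dbp and Tef over Nfil3, in total exon RPKM, ran in shCTRL from 1.20 at 34 h to 61.3 at 24 h, a 51.3-fold range. In shBmal1 it ran from 0.631 at 46 h to 2.81 at 24 h, a 4.45-fold range. Without the 46 h library, which stands apart for Nfil3, the lowest shBmal1 ratio was 1.06 at 38 h and the range 2.65-fold. The highest shBmal1 ratio was thus within the lowest part of the shCTRL range. In 4sU exon RNA the shCTRL ratios spanned 1.07 to 35.2 and the shBmal1 ratios 0.549 to 2.85 (0.857 to 2.85 without 46 h).

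The order of the 3 genes also changed over the cycle. In shCTRL total RNA Nfil3 exceeded Dbp at 4 of 12 times (32 to 38 h) and Tef at 2 (34 and 36 h). In shBmal1 it exceeded Dbp at 12 of 12 and Tef at 8 of 12 times (32 to 46 h). Dbp exceeded Tef at 24 and 46 h in shCTRL and at 0 of 12 times in shBmal1, where the ratio of Dbp to Tef stayed between 0.407 and 0.585. These are single libraries per time, and the balance was not tested.

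**Figure D4:**
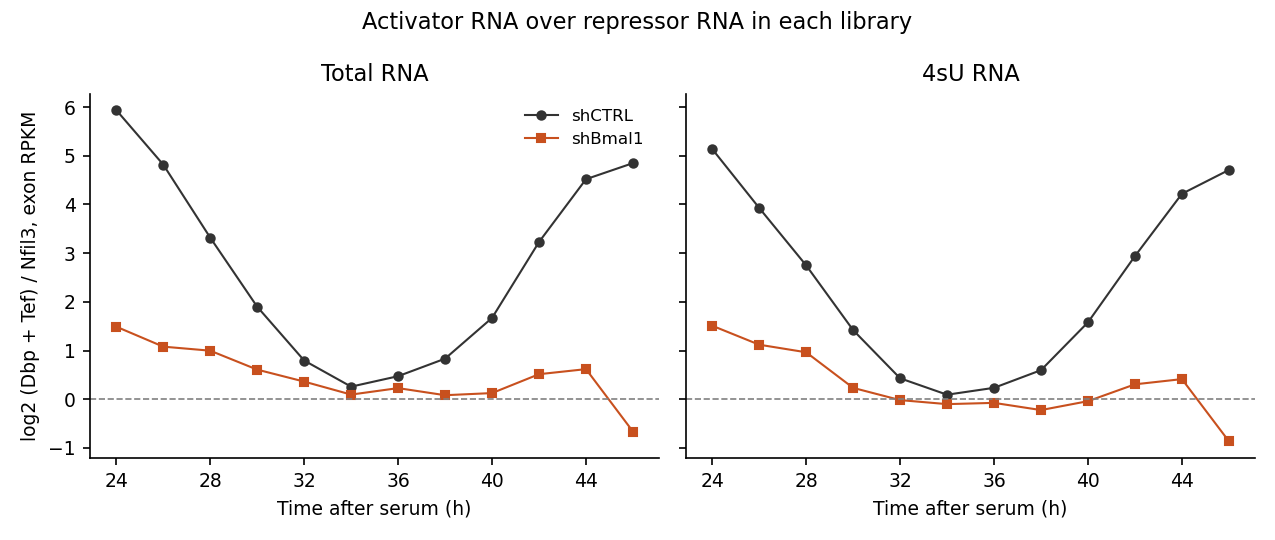
Log2 ratio of the summed exon RPKM of Dbp and Tef to that of Nfil3 against hours after serum, in total RNA (left) and 4sU RNA (right), for shCTRL (circles) and shBmal1 (squares); the dashed line marks equal amounts. In total RNA shCTRL runs from 0.26 at 34 h to 5.94 at 24 h, and shBmal1 stays between -0.67 and 1.49.

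Hlf, the third PAR bZIP gene, was present at far lower levels per length. Its total exon RPKM was 0.331 to 1.28 in shCTRL (median 0.690) and 0.505 to 0.973 in shBmal1 (median 0.800). All shBmal1 libraries lay within the shCTRL range, with 4 shCTRL libraries above and 2 below every one of them. Scaled Hlf RNA was at a shBmal1 minus shCTRL log2 difference of -1.28 at 24 h and 0.98 at 38 h. The line difference was -0.03 ± 0.0783 (limma adjusted p = 0.746). In shCTRL it cycled with an amplitude of 0.65 and a peak at 26.3 h (adjusted p = 7.68e-05), and the difference in rhythm between the lines passed (0.000618). The summed PAR bZIP RNA in these cells was therefore nearly all Dbp and Tef.

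The genes whose shCTRL course was most like each member were named by Pearson's r of log2 total exon level over the 12 shCTRL total RNA libraries, which share the serum pulse and the time axis. For Dbp they were Tef (0.978), the clock gene Per1 (0.973), Klf11 (0.970), the lipid enzyme Dgat2 (0.967) and Sphk2 (0.964). For Tef they were Dbp (0.978), Per3 (0.977), the taurine transporter Slc6a6 (0.973), Per1 (0.965) and Bhlhe40 (0.957). For Nfil3 they were Sash1 (0.983), Sh3pxd2b (0.978), the protease Adamts4 (0.955), Arntl (0.932) and Plxnd1 (0.931).

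The most opposite courses to Dbp were those of Sash1 (-0.987), Arntl (-0.976) and Sh3pxd2b (-0.971). For Tef they were Arntl (-0.962), Clmp (-0.948) and Sash1 (-0.940). Courses opposite to Nfil3 included Hhipl1 (-0.975) and Nr1d2 (-0.971), the latter encoding a REV-ERB repressor. Over the 12 shBmal1 total RNA libraries r between Dbp and Tef was 0.909. Arntl gave -0.903 with Dbp and -0.952 with Tef, and Sash1 -0.758 and -0.862. Sh3pxd2b gave only -0.321 with Dbp, and Clmp -0.614 with Tef. Among the genes like Dbp, Dgat2 gave 0.801, Sphk2 0.764, Per1 0.366 and Klf11 0.126. Among those like Tef, Per3 gave 0.812, Slc6a6 0.537, Per1 0.0966 and Bhlhe40 0.086. For Nfil3 the values of the 5 genes most like it lay between -0.169 (Sh3pxd2b) and 0.276 (Sash1). Of the genes opposite to Nfil3 in shCTRL, Hhipl1 gave 0.225 and Nr1d2 0.0323.

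Sphk2, a sphingosine kinase gene, overlaps the 3′ end of Dbp on the opposite strand at chr7:45709463-45710203, 741 bases. Its total exon RPKM was 6.18 to 15.5 in shCTRL (median 9.32) and 7.25 to 11.3 in shBmal1 (median 9.16). Its shCTRL rhythm was called in total exon RNA (amplitude 0.50, peak 47.3 h, limma adjusted p = 0.000154) and not in 4sU intron RNA (0.10, 0.756). The libraries were strand-specific per the labels, but whether counting used the strand is not stated in the sources used here. Reads of the shared stretch may therefore enter both genes, and the part of Dbp reads in the Sphk2 course was not tested.

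The other genes of the pathway were read from lists by the element that controls them. Of 8 clock genes with a D-box in the literature 7 were in the tables; 4 were lower and 2 higher in shBmal1 total RNA by limma (33.1% and 34.4% of all genes), and the list median was -1.19 against 0.01 for all genes. Lower were the REV-ERB genes Nr1d2 (-1.68 ± 0.0717) and Nr1d1 (-1.56 ± 0.0554), Per3 (-1.29) and the activator Rora (-1.19). Higher were the repressor genes Cry1 (0.67 ± 0.0455) and Per2 (0.17), while Per1 gave 0.11 (limma adjusted p = 0.0637). A 24-h rhythm was called in 6 of the 7 in shCTRL, all but Rora, and in 6 in shBmal1 (3.6% and 11.1% of all genes).

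Among 15 genes that CLOCK and BMAL1 drive through E-boxes, a list that holds Dbp, Tef and Hlf and 6 genes of the D-box list, 6 were lower and 3 higher in total RNA (median -0.13). These 9 of 15 stand beside 67.6% of all genes called in either direction. A rhythm was called in 14 of them in shCTRL (3.6% of all genes) and differed between the lines in 12 (0.807%). With 30, 34 and 46 h left out 8 were lower and 4 higher. The amplitudes of Dbp and Tef in shCTRL stood in the upper part of this list, whose median was 0.86, together with Nr1d1 (1.51) and Per2 (1.36).

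ROR element genes gave a different picture in exon and in intron RNA. Of the 4 tested, Nfil3 (1.23) and Cry1 (0.67) were higher and Arntl (-0.92) and Clock (-0.36) lower in total exon RNA. In 4sU intron RNA all 4 were higher by limma, Nfil3 by 1.02, Cry1 by 0.86, Arntl by 0.57 and Clock by 0.17, where 22.1% of all genes were called higher. Arntl, the hairpin's target, was also lower in 4sU exon RNA (-0.72) and higher in total intron RNA (0.51). Clock gave -0.28 and 0.25 there. Both genes were thus lower in exon RNA and higher in intron RNA, newly made or total. On the 4sU intron values as deposited Clock was at -0.29 and Arntl at 0.11, against the median of -0.45 for all genes. Nfil3, Cry1 and Arntl had a called 24-h rhythm in shCTRL in total exon and in 4sU intron RNA. All 3 differed in rhythm between the lines in both of these layers.

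Of 10 reported targets of PAR bZIP proteins, mostly genes of drug and vitamin metabolism in liver, 6 were in the tables, and 2 were lower and 1 higher in shBmal1 total RNA, where 33.1% and 34.4% of all genes were called. Pdxk, which makes the active form of vitamin B6, was lower in shBmal1 (-0.57 ± 0.0518, limma adjusted p = 6.59e-09). Its total exon RPKM was 32.9 to 64.3 in shCTRL (median 41.6) and 27.6 to 40.5 in shBmal1 (median 30.5), so the lines overlapped. It was also the 1 gene of the list with a called rhythm in shCTRL (amplitude 0.43, peak 26.8 h), and the difference in its rhythm between the lines did not pass (adjusted p = 0.0906).

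Of the others, the haem synthesis enzyme gene Alas1 was lower (-0.17) and the nuclear receptor gene Nr1i3 higher (0.53), while Por gave -0.01 (limma adjusted p = 0.854). The list median was -0.05. Without 30, 34 and 46 h 1 gene was lower and 1 higher, and the Pdxk rhythm difference then passed (0.0376). The Pdxk rhythm difference also passed with quantile normalization (limma adjusted p = 0.0151). Of 6 C/EBP genes, bZIP proteins whose sites resemble D-boxes, 2 were in the tables, with Cebpd higher (0.30) and Cebpg lower (-0.25) in total exon RNA. Neither had a called rhythm there, while Cebpd passed in shBmal1 with quantile normalization (0.0399) and in shBmal1 4sU exon RNA (amplitude 0.29, adjusted p = 0.014).

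**Figure D5:**
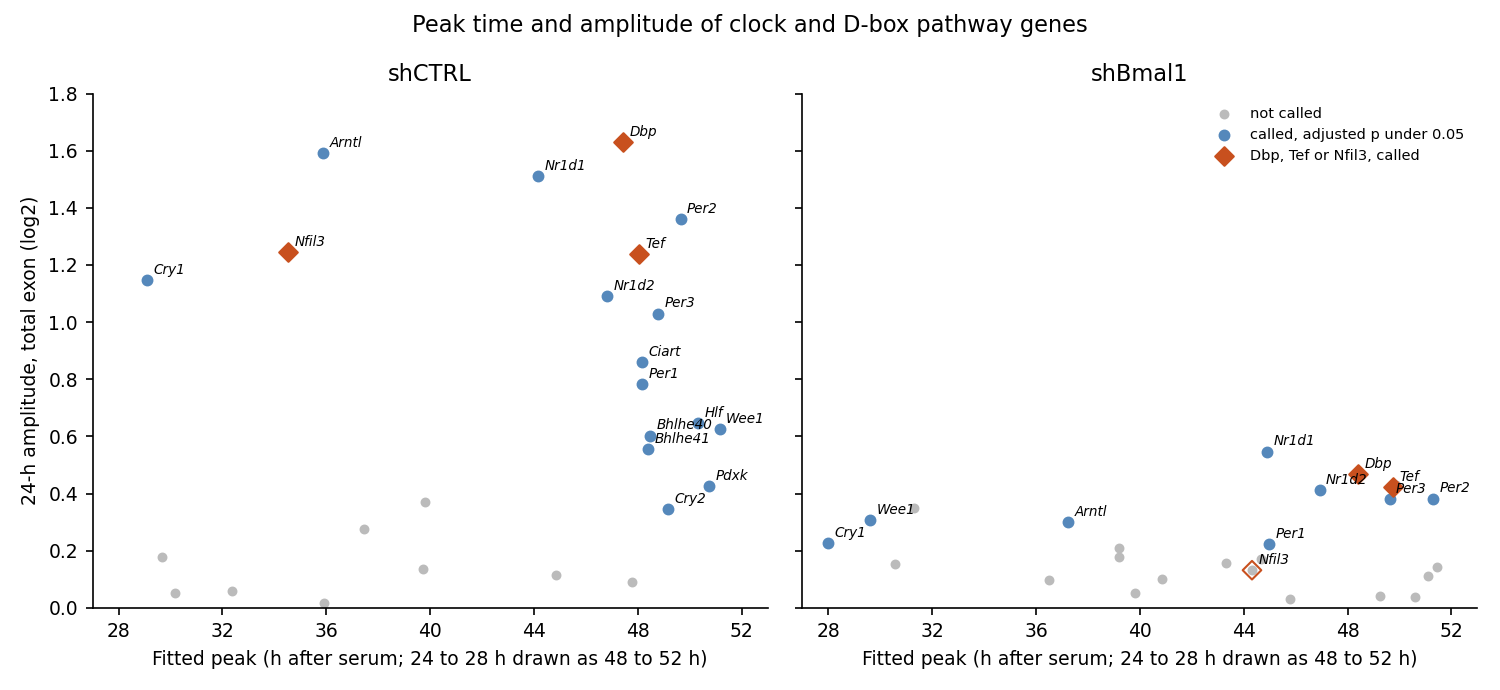
Fitted 24-h amplitude of total exon RNA (log2) against fitted peak time for the genes of the lists, in shCTRL (left) and shBmal1 (right); grey points and the open diamond were not called by limma. In shCTRL Dbp (1.63) and Tef (1.24) stand on the side of the Per genes and Nfil3 (1.25) on that of Arntl, and in shBmal1 the highest amplitude is 0.55 (Nr1d1).

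The 46 h library of shBmal1 stood apart for Nfil3. Its total exon level was 21.7 RPKM, against 10.1 to 12.4 in the other 11 shBmal1 libraries, and its 4sU exon level 29.5, against 11 to 17.3. Dbp (5.00) and Tef (8.70) of that library lay within the range of the others. Over all genes 44 lay above every other shBmal1 library by more than 0.5 log2 in total RNA and 68 in 4sU RNA, 40 of them in both, Nfil3 included. Without 46 h the total exon amplitude of Nfil3 in shBmal1 was 0.09 (limma adjusted p = 0.289).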

How the data were processed

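The authors deposited exon and intron RPKM for 11313 genes in 48 libraries. The submitters' processing notes name Trim Galore, HOMER 4.11.1 and the build mm10 (GRCm38.p6). The aligner, annotation and strand setting are not stated in the sources used here. The yeast and hybrid spike-ins named in the labels' protocols were not used here. Whole reads were recovered from the steps of the RPKM values. Exon and intron totals were equal in 36 libraries, whereas in the 12 shBmal1 4sU libraries the intron total exceeded the exon total 1.35 to 1.39 times, so deposited intron RPKM is not on 1 scale.

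RPKM were divided by the library's median ratio to the mean over the 24 libraries of a kind, filtered (mean of at least 0.5 for exons, 0.1 for introns) and logged as log2(RPKM + 0.1) or log2(RPKM + 0.02), which understates changes of low genes. Limma 3.58.1 in R 4.3.3 (variance trend, robust) fitted, per line, a mean with 24-h and 12-h cosine and sine terms. P-values were adjusted over all genes by Benjamini-Hochberg, with calls under 0.05. Fits and read recovery were tested on simulated data. The difference of 2 layers was fitted the same way.

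The 3 genes and the lists were chosen with earlier results of these data known. Named genes are the 3 members, list members, and per member the 5 most and 3 least correlated genes, of which 1 is not reported here. RefSeq symbols matched 10787 (95.4%) of the genes; windows come from the RefSeq promoter table. Time points are shared by the lines, so time as a block was an alternative; the labels do not say that cultures of 1 time share a batch, and deviations at the same time correlated above 0.1 in 9 of 12 pairs (-0.18 to 0.42), and residuals of the fit in 4 of 12 (-0.66 to 0.57). Other alternatives changed scaling, pseudocount, filter, time terms, variance model and times used; leaving out 30, 34 and 46 h together and putting introns on exon totals were chosen after seeing the data.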

Additional observations from a re-analysis of the deposited data

Results flagged for a closer look

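The 24-h course differed between shCTRL and shBmal1 for each of the 3 genes, by limma's test of the difference itself. In total exon RNA the adjusted p was 2.18e-05 for Dbp, 2.23e-05 for Tef and 2.18e-05 for Nfil3. In 4sU intron RNA it was 0.00564 for Dbp, 0.000323 for Tef and 0.00859 for Nfil3. For Dbp the line difference also differed between 4sU exon and total exon RNA (adjusted p = 0.0151), being smaller in newly made RNA (-1.07) than in total RNA (-1.31).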

How the results depend on the processing

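Over 33 main results, 759 of 777 alternative settings kept the direction and the side of the threshold. An amplitude cannot be negative, so the direction could change only for the line differences. Peak times were not compared between settings. The Dbp line difference in the 4sU to total ratio (0.24) missed the threshold with no time terms (0.24, limma adjusted p = 0.0566) and without 30, 34 and 46 h (0.23, 0.142), and ranged from 0.20 to 0.28 with single times left out. The Dbp 4sU intron amplitude in shBmal1 missed it with a linear time term (0.62, 0.0559) and without 30, 34 and 46 h (0.50), and ranged from 0.30 to 0.57. The Dbp 4sU intron rhythm difference missed it without those 3 times (0.93, 0.284). With single times left out the Nfil3 4sU intron rhythm difference ranged from 1.0 to 1.3, the 12-h amplitudes from 0.15 to 0.28 (Nfil3, shCTRL) and 0.15 to 0.26 (Tef, shBmal1), and the Tef ratio difference from -0.016 to 0.013, which changed sign; it was 0.022 without 30, 34 and 46 h. Total exon minus 4sU intron turned to 0.13 for Dbp and 0.48 for Tef on values as deposited and to 0.029 for Tef with introns on exon totals, where the median of all genes was 0.53 and 0.09; less that median both genes kept their direction (-0.40 for Dbp, -0.05 and -0.06 for Tef). With the replicate block (time point as a factor) the total exon line differences were -1.31, -0.79 and 1.23 for Dbp, Tef and Nfil3 and no call among the main results changed, while the Nfil3 total intron rhythm difference passed (1.01, adjusted p = 0.00609) and 48 rather than 88 total exon rhythm differences were called; deviations at shared times correlated above 0.1 in 9 of 12 pairs. Without scaling limma called 2606 genes lower and 4985 higher in total exon RNA (3615 and 3756 scaled) and 9484 and 168 in 4sU intron RNA (2340 and 2322). The count of total exon rhythms in shBmal1 (1214) was 375 without 40 h, 772 without 30 h, 719 without 38 h, 771 without 42 h and 1825 without 32 h. In shCTRL (393) it was 202 without 38 h, 204 without 40 h, 243 without 42 h, 258 without 44 h and 598 without 30, 34 and 46 h. With 1 culture per time the spread between cultures was not measured.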

Other observations

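The 40 genes that lay above every other shBmal1 library by more than 0.5 log2 at 46 h, in total and in 4sU RNA, were named after their values were seen. Besides Nfil3 they include Chac1, a glutathione-degrading enzyme gene, at 144.0 RPKM in total RNA against 17.4 to 26.7 in the other 11 libraries. Trib3 was at 65.4 against 10.1 to 16.3, the bZIP gene Atf3 at 15.6 against 3.56 to 5.14, and the amino acid transporter gene Slc7a5 at 71.2 against 24.7 to 36.2. The serine synthesis gene Psph was at 22.6 against 9.74 to 13.9 and Atf4, the bZIP regulator of amino acid shortage, at 449.0 against 251.0 to 306.0. In 4sU RNA Chac1 was at 210.0 against 18.4 to 39.1 and Nfil3 at 29.5 against 11 to 17.3. Arntl (4.22), Dbp (5.00) and Tef (8.70) were within the range of the other libraries. This is 1 culture, and nothing was tested.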
